A study of Mus musculus with 39 samples.

Results

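Homeobox genes encode transcription factors that bind DNA through a homeodomain and lay out the territories of the developing brain. Many stay active in the adult, where they maintain the identity of neurons born in a given territory. The set described here holds 57 of the 25429 probe sets on the array, taken as every mouse gene whose symbol is *Lhx*, *Dlx*, *Meis*, *Irx*, *Pbx* or *Cux* with 1 digit, the sine oculis homeobox genes named likewise (*Six2*, *Six3*, *Six4*, *Six5* and *Six6*), *Nkx* with 2 digits or *Pou* with a class and member digit. It has 8 *Lhx*, 6 *Dlx*, 5 sine oculis, 13 *Nkx*, 11 *Pou*, 3 *Meis*, 3 *Pbx*, 6 *Irx* and 2 *Cux* genes. The rule itself uses gene names and no measured value, and it was chosen with earlier results of these data known.

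Expression was measured with 39 whole-transcript arrays in 4 brain regions (hypothalamus, hippocampus, cortex and amygdala) of 5 PianpKO and 5 control mice. PianpKO mice lack *Pianp*, a transmembrane protein gene of neurons, in all cells: the Pianptm1a(KOMP)Wtsi allele was converted with the Flp line B6N.Cg-Tg(ACTFLPe)9205Dym/CjDswJ and then deleted with the ubiquitous CMV-Cre line B6.C-Tg(CMV-cre)1Cgn/J. Control mice carried the floxed allele without the deletion. All mice were adult males between 8 and 48 weeks old, and regions were punched by hand from frozen coronal slices. Each group had 5 mice except the control amygdala, with 4, since control mouse 4 has no amygdala sample here. A log2 level can be set against the same gene in another sample but not against another gene. *Pianp* (Entrez gene 319352) read 5.10 to 6.17 in the PianpKO samples and 7.08 to 8.16 in the control samples, with no overlap.

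The punches carried markers of their region and of neighbors. In control mice, 7 of 7 hippocampal, 6 of 7 cortical, 5 of 8 hypothalamic and 2 of 3 amygdalar markers were higher in the named region than in the mean of the other 3 at an adjusted p under 0.05. Only 1 of the 3 amygdalar markers was highest in the amygdala, however, and their mean there, 6.15 to 6.59 in PianpKO and 6.08 to 6.45 in control mice, was below every hippocampal sample (6.90 to 7.25 and 7.12 to 7.23). Of the 5 thalamic markers, 5 were also highest in the hippocampal samples, where their mean level was 7.33 to 8.88 in PianpKO and 7.82 to 8.63 in control mice, against at most 6.86 and 6.73 in the other 3 regions. Of the 7 choroid plexus markers, 7 were highest there too. Of the 9 striatal markers, 6 were higher in the control hypothalamus than in the other 3 regions. The 8 hypothalamic markers averaged 6.42 to 7.43 in the PianpKO and 5.12 to 6.91 in the control amygdala, which overlaps the 6.54 to 7.79 and 6.12 to 6.92 of the hypothalamus itself. In such bulk samples, a change in the number of cells of a type and in RNA per cell cannot be told apart.

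**Figure D1:**
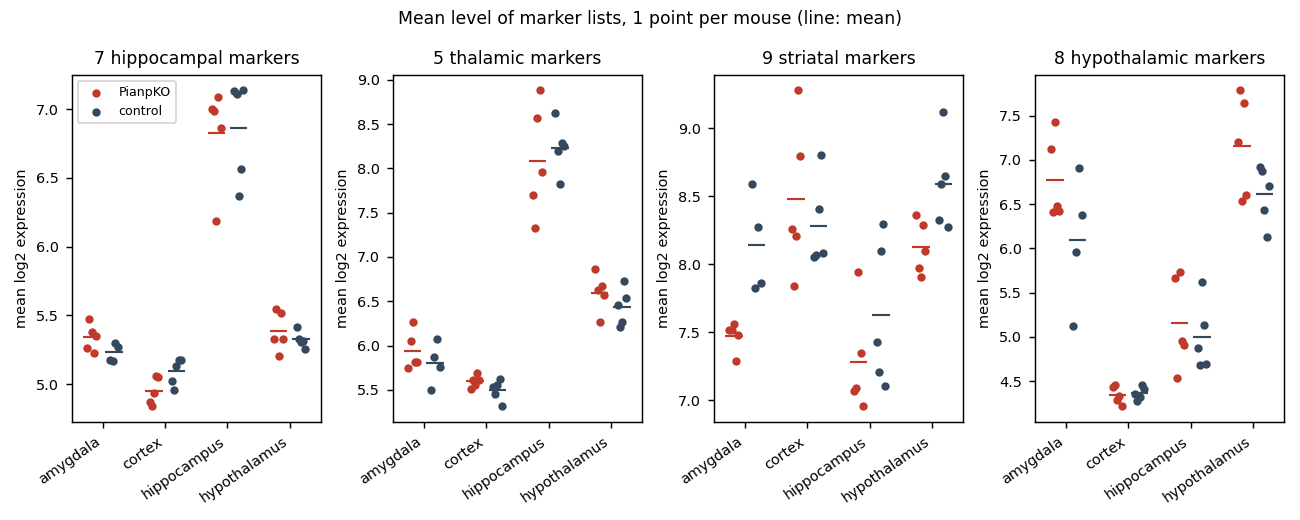
Mean log2 level of hippocampal, thalamic, striatal and hypothalamic marker lists (vertical axes) in each mouse, by region, with PianpKO in red left of control in dark blue and a line at each group mean. The thalamic list is highest in the hippocampal samples, at 7.33 to 8.88, and the striatal list is lower in every PianpKO amygdala (7.29 to 7.56) than in any control amygdala (7.83 to 8.59).

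LIM homeodomain factors (*Lhx*) work with the cofactor Ldb1, and *Dlx* factors drive GABAergic neurons of the ventral forebrain. *Six3*, *Six6* and *Nkx2-1* pattern the anterior and ventral forebrain. *Irx* genes pattern the diencephalon and more posterior brain, and *Pou3* and *Cux* genes are known from cortical neurons. Meis and Pbx proteins, of the TALE class, bind DNA together with other homeodomain proteins, and the letters TGACAG hold the core bound by Meis proteins. A promoter was available in the RefSeq table of build GRCm38.p6 for 43 of the 57 members, as a window of 300 bases around the start. For a gene with several windows, only the window with the lowest coordinate was kept, for members and all other genes alike. On the minus strand this is the most downstream start, so a printed or counted window need not be the gene's main promoter. The promoters below are from members that were higher in 1 region than in the other 3, namely 2 of the hippocampus (*Lhx9*, *Pou4f1*), 2 of the hypothalamus (*Lhx6*, *Six6*) and 1 of the cortex (*Cux2*), each with 1 TGACAG match on either strand in capitals, read 5′ to 3′ along the gene (CTGTCA is the match on the opposite strand).
Lhx9, chr1:138842395-138842694, minus strand: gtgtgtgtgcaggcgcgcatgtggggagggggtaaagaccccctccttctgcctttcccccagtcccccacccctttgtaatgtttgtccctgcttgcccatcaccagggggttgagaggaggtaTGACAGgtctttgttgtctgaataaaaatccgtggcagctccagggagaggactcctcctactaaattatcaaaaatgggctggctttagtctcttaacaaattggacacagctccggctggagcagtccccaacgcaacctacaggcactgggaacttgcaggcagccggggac
Pou4f1, chr14:104467950-104468249, minus strand: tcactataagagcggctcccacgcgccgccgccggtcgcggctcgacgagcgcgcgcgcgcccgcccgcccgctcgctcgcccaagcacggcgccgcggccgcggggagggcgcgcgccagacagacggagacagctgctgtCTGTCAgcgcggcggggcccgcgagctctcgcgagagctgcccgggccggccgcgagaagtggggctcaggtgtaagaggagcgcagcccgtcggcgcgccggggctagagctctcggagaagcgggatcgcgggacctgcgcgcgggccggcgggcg
Lhx6, chr2:36104011-36104310, minus strand: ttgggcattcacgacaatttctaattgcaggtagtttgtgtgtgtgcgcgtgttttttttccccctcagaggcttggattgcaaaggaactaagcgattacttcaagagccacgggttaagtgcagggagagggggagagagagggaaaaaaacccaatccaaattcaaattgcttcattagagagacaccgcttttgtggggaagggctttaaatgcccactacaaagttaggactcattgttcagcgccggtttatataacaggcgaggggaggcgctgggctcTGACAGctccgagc
Six6, chr12:72939632-72939931, plus strand: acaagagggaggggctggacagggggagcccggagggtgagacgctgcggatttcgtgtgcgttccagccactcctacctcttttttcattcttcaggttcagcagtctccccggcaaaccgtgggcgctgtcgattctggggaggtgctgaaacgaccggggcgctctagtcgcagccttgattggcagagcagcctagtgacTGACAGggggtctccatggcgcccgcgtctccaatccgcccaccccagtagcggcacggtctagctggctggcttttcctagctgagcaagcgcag
Cux2, chr5:122047776-122048075, minus strand: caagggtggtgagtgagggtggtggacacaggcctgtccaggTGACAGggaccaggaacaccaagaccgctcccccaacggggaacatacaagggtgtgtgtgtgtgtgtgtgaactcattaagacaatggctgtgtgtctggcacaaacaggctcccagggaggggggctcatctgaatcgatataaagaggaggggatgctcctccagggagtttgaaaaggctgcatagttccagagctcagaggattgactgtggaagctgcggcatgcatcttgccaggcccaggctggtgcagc

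Members' promoters were rich in CpG. The ratio of observed to expected CpG was over 0.6 in 31 of 43 (72.1%) promoters of members, against 35.9% of 27025 promoters of all genes, and the median GC content was 65% against 52.7%. The 5 printed windows span this range, with CpG ratios of 1.24 (*Pou4f1*), 0.69 (*Six6*), 0.64 (*Lhx6*), 0.26 (*Lhx9*) and 0.18 (*Cux2*). TGACAG was found on either strand in 12 of 43 members (27.9%) and in 19.4% of all promoters, and CAAGTG, the core bound by Nkx2 proteins, in 2 members (4.65%) and 13.7% of all. TAATTA, a core of many homeodomain proteins, the octamer ATGCAAAT of Pou proteins and TGATTGAT of Pbx partners were found in 0 of 43 members, and in 5.40, 1.74 and 0.759% of all promoters. None of these motifs holds another. Members also lie beside each other: in the RefSeq order of protein-coding genes, *Dlx1* is next to *Dlx2*, *Dlx6* to *Dlx5*, *Dlx3* to *Dlx4*, *Six3* to *Six2*, *Nkx2-1* to *Nkx2-9*, *Nkx2-4* to *Nkx2-2*, *Irx1* to *Irx2*, *Irx2* to *Irx4*, *Irx3* to *Irx5* and *Irx5* to *Irx6*.

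More members passed the test between regions than between genotypes. Among PianpKO mice, 31 of 57 members (54.4%) differed between the 4 regions in limma's F test at an adjusted p under 0.05, against 26.9% of all probe sets. Among control mice, 33 of 57 (57.9%) did, against 31.5% of all. Of these, 28 members passed in both genotypes, and 27 of the 28 had the same highest region. *Meis2* was the exception, highest in the cortex of PianpKO and in the amygdala of control mice. Passing in PianpKO only were *Irx5*, *Nkx2-2* and *Nkx2-4*, and in control only *Dlx3*, *Meis3*, *Nkx3-2*, *Nkx6-1* and *Six4*. A further 21 passed in neither: *Dlx4*, *Irx4*, *Irx6*, *Lhx3*, *Lhx4*, *Nkx1-1*, *Nkx1-2*, *Nkx2-3*, *Nkx2-5*, *Nkx2-6*, *Nkx6-3*, *Pbx2*, *Pbx4*, *Pou2f2*, *Pou2f3*, *Pou3f4*, *Pou4f3*, *Pou5f1*, *Pou5f2*, *Six2* and *Six5*. Passing the test in one genotype only does not show a difference between genotypes, for which the interaction is given below.

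By class, 6 of 8 *Lhx*, 5 of 6 *Dlx*, 3 of 3 *Meis* and 2 of 2 *Cux* genes varied between regions in control mice. The counts were 3 of 5 for the sine oculis genes, 5 of 13 for *Nkx*, 5 of 11 for *Pou*, 3 of 6 for *Irx* and 1 of 3 for *Pbx*, where the varying member was *Pbx3*. Signal was low for many members: 33 of 57 had a mean at or below the median probe set, and 14 of these 33 varied in control mice, against 19 of the 24 brighter ones. In a fit without dim probe sets, 7610 of all the brighter probe sets varied in control mice too. Of the 33 that varied in control mice, the hypothalamus had the highest mean for 14, the cortex for 12, the hippocampus for 6 and the amygdala for 1. Between region means, 10 spanned more than 1 log2 unit, a 2-fold range. The counts by highest region and by span were not made over all probe sets, so they show no trait particular to the members.

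**Figure D2:**
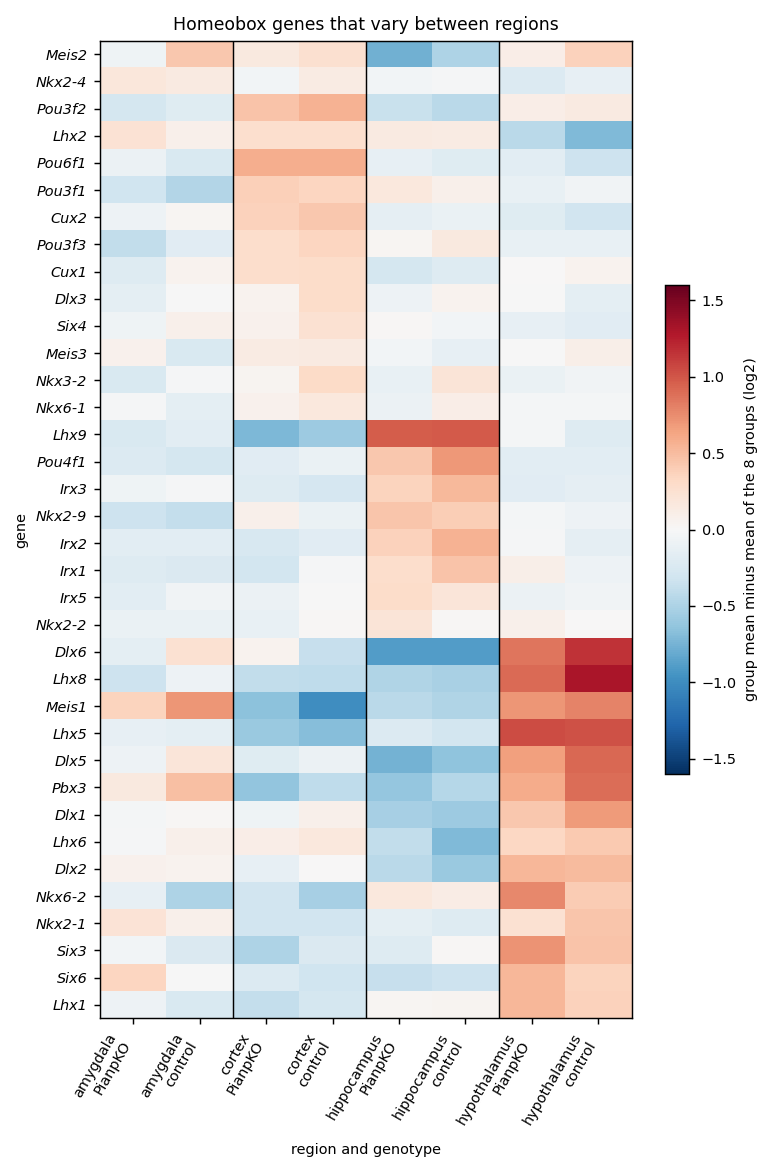
Group mean of each of the 36 homeobox genes that varied between regions in either genotype, minus the mean of its 8 group means (log2, colour), with regions in columns and PianpKO left of control. Blocks of red mark *Dlx1*, *Dlx2*, *Dlx5*, *Dlx6*, *Lhx1*, *Lhx5*, *Lhx6*, *Lhx8*, *Meis1* and *Pbx3* in the hypothalamus, *Lhx9*, *Pou4f1* and *Irx* genes in the hippocampus, and *Pou3* and *Cux* genes in the cortex, in both genotypes.

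More members were higher in the hypothalamus than in any other region. In PianpKO mice 14 of 57 members (24.6%, against 7.05% of all probe sets) were higher there than in the mean of the other 3 regions, and in control mice 14 of 57 (24.6%, against 9.30%) were. The same 14 genes passed in both genotypes: *Dlx1*, *Dlx2*, *Dlx5*, *Dlx6*, *Lhx1*, *Lhx5*, *Lhx6*, *Lhx8*, *Meis1*, *Nkx2-1*, *Nkx6-2*, *Pbx3*, *Six3* and *Six6*. Lower in the hypothalamus were 3 members in PianpKO (5.26%, against 7.31% of all) and 6 in control mice (10.5%, against 8.99%).

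*Lhx8* (Entrez gene 16875), a factor of cholinergic and other ventral forebrain neurons, read 5.50, 5.33, 5.38, 5.74 and 5.47 in the PianpKO hypothalamus and 6.42, 5.47, 6.59, 5.36 and 5.58 in the control hypothalamus. Every one of these lay above the other 3 regions, which reached at most 4.57 in PianpKO and 4.98 in control mice. Control replicates 1 and 3 stood above the other 3 control mice. The hypothalamus minus the mean of the other 3 regions was 1.31 (SE 0.14, adjusted p = 8.80e-09) in PianpKO and 1.65 (SE 0.14, adjusted p = 6.46e-11), or 3.13-fold, in control mice.

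*Lhx5* (Entrez gene 16873), needed for the mammillary part of the hypothalamus, read 5.39, 5.04, 5.24, 4.87 and 5.45 in the PianpKO hypothalamus and 5.42, 5.48, 5.31, 4.65 and 4.98 in the control hypothalamus. The other regions reached 4.60 and 4.29. Both genotypes were thus apart from the remaining regions, by 1.37 (SE 0.12, adjusted p = 1.03e-10) in PianpKO and 1.40 (SE 0.12, adjusted p = 6.13e-11) in control mice. *Lhx1*, a factor of the suprachiasmatic nucleus, was 0.68 higher in the PianpKO and 0.52 higher in the control hypothalamus.

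The 4 *Dlx* genes of the forebrain were all higher in the hypothalamus. *Dlx6* (Entrez gene 13396) read 7.41, 6.70, 7.30, 7.13 and 7.13 in the PianpKO and 7.97, 7.44, 7.62, 6.93 and 7.20 in the control hypothalamus. In the PianpKO mice its lowest hypothalamic value, 6.70, lay below the highest of the other regions, 6.94 in the amygdala, while the control hypothalamus did not overlap the rest. The hypothalamus exceeded the other 3 regions by 1.18 (SE 0.17, adjusted p = 3.31e-06) in PianpKO and 1.49 (SE 0.17, adjusted p = 4.24e-08) in control mice for *Dlx6*. Its neighbor *Dlx5* was 1.00 and 1.10 higher there, and the neighboring *Dlx1* and *Dlx2* were 0.64 and 0.69 higher in PianpKO and 0.84 and 0.68 higher in control mice. *Dlx3*, a gene of skin, teeth and placenta, and *Dlx4* were not higher in the hypothalamus in either genotype.

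The same 4 *Dlx* genes were lowest in the hippocampus. *Dlx6* read 5.66, 5.34, 5.43, 5.34 and 5.18 in the PianpKO and 5.41, 5.03, 6.16, 5.36 and 5.0 in the control hippocampus, and differed from the other 3 regions by -1.14 (adjusted p = 7.15e-06) in PianpKO and -1.23 (adjusted p = 2.37e-06) in control mice. *Dlx5* differed by -0.89 and -0.98. *Lhx6*, which marks interneurons born in the medial ganglionic eminence, read 6.41 to 7.06 in the PianpKO and 6.12 to 6.85 in the control hippocampus, below every other region's sample (from 7.09 and 6.90). The mean of 8 GABAergic markers was also lowest in these samples, at 7.99 to 8.40 in the PianpKO and 7.96 to 8.57 in the control hippocampus, against 8.56 to 8.97 and 8.63 to 8.89 elsewhere, and its part in the *Dlx* levels was not tested.

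*Meis1* and *Pbx3*, of the TALE class, were higher in the hypothalamus in both genotypes. *Meis1* (Entrez gene 17268) read 6.20, 6.0, 6.17, 5.88 and 6.31 in the PianpKO and 6.13, 6.54, 6.28, 5.84 and 6.25 in the control hypothalamus. In the amygdala it read 6.02, 5.79, 5.95, 5.41 and 5.66 in PianpKO and 6.22, 5.88, 6.28 and 6.11 in control mice. The cortex was lowest, with 3.95, 4.67, 4.98, 5.07 and 5.07 in PianpKO and 4.22, 4.42, 4.24, 4.97 and 4.22 in control mice, a difference from the other 3 regions of -0.87 (SE 0.13, adjusted p = 2.52e-06) and -1.34 (SE 0.13, adjusted p = 6.83e-10). Hypothalamus and amygdala overlapped each other for this gene, and both were above every cortical sample.

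*Pbx3* (Entrez gene 18516), whose product pairs with Meis proteins on DNA, read 7.59, 7.42, 7.48, 7.62 and 7.56 in the PianpKO and 8.10, 8.17, 7.73, 7.63 and 7.54 in the control hypothalamus. It exceeded the other 3 regions there by 0.96 (SE 0.13, adjusted p = 9.66e-07) in PianpKO and 1.02 (SE 0.13, adjusted p = 3.42e-07) in control mice. *Pbx2* and *Pbx4* did not vary between regions. The mean of the 9 striatal markers was 7.91 to 8.36 in the PianpKO and 8.27 to 9.12 in the control hypothalamus, with medians of 8.10 and 8.59, against cortical medians of 8.26 and 8.08. In PianpKO mice 8 of the 9 were highest in the cortex and 1 in the hypothalamus, and in control mice 2 were highest in the cortex and 7 in the hypothalamus. *Dlx*, *Meis*, *Pbx3* and *Six3* genes are also expressed in the striatum, and the part of striatal tissue in their hypothalamic levels was not tested.

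*Six3*, *Six6*, *Nkx2-1* and *Nkx6-2* were also higher in the hypothalamus. Other *Nkx2* and *Nkx6* genes were not. *Nkx2-4* had its lowest mean there in both genotypes, *Nkx2-2* and *Nkx2-9* were highest in the hippocampus and *Nkx6-1* in the cortex. *Six3* exceeded the other 3 regions by 0.96 in PianpKO and 0.61 in control mice, and *Six6*, a gene of the eye, pituitary and hypothalamus, by 0.61 and 0.58. *Six6* read 4.27, 4.61, 4.22, 4.69 and 5.01 in the PianpKO and 4.36, 4.67, 3.94, 4.59 and 4.37 in the control hypothalamus, which overlapped the amygdala in both genotypes. *Nkx2-1*, which specifies the ventral forebrain, was 0.32 higher in PianpKO and 0.59 higher in control mice. *Nkx6-2*, known from the neural tube and from oligodendrocytes, was 0.86 and 0.72 higher, reading 7.30, 7.60, 6.84, 7.49 and 7.39 in the PianpKO and 7.15, 6.79, 7.06, 6.90 and 6.91 in the control hypothalamus. *Lhx2* (Entrez gene 16870), which sets cortical against ventral fates in the embryo, was the leading gene on the other side, at -0.64 (adjusted p = 0.000291) in PianpKO and -0.87 (adjusted p = 2.96e-06) in control mice. It read 7.72, 8.11, 8.14, 8.16 and 7.77 in the PianpKO and 7.05, 8.15, 7.49, 7.96 and 7.82 in the control hypothalamus, and control replicate 1, its lowest sample, also had the lowest mean of the 7 cortical markers, 7.11.

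**Figure D3:**
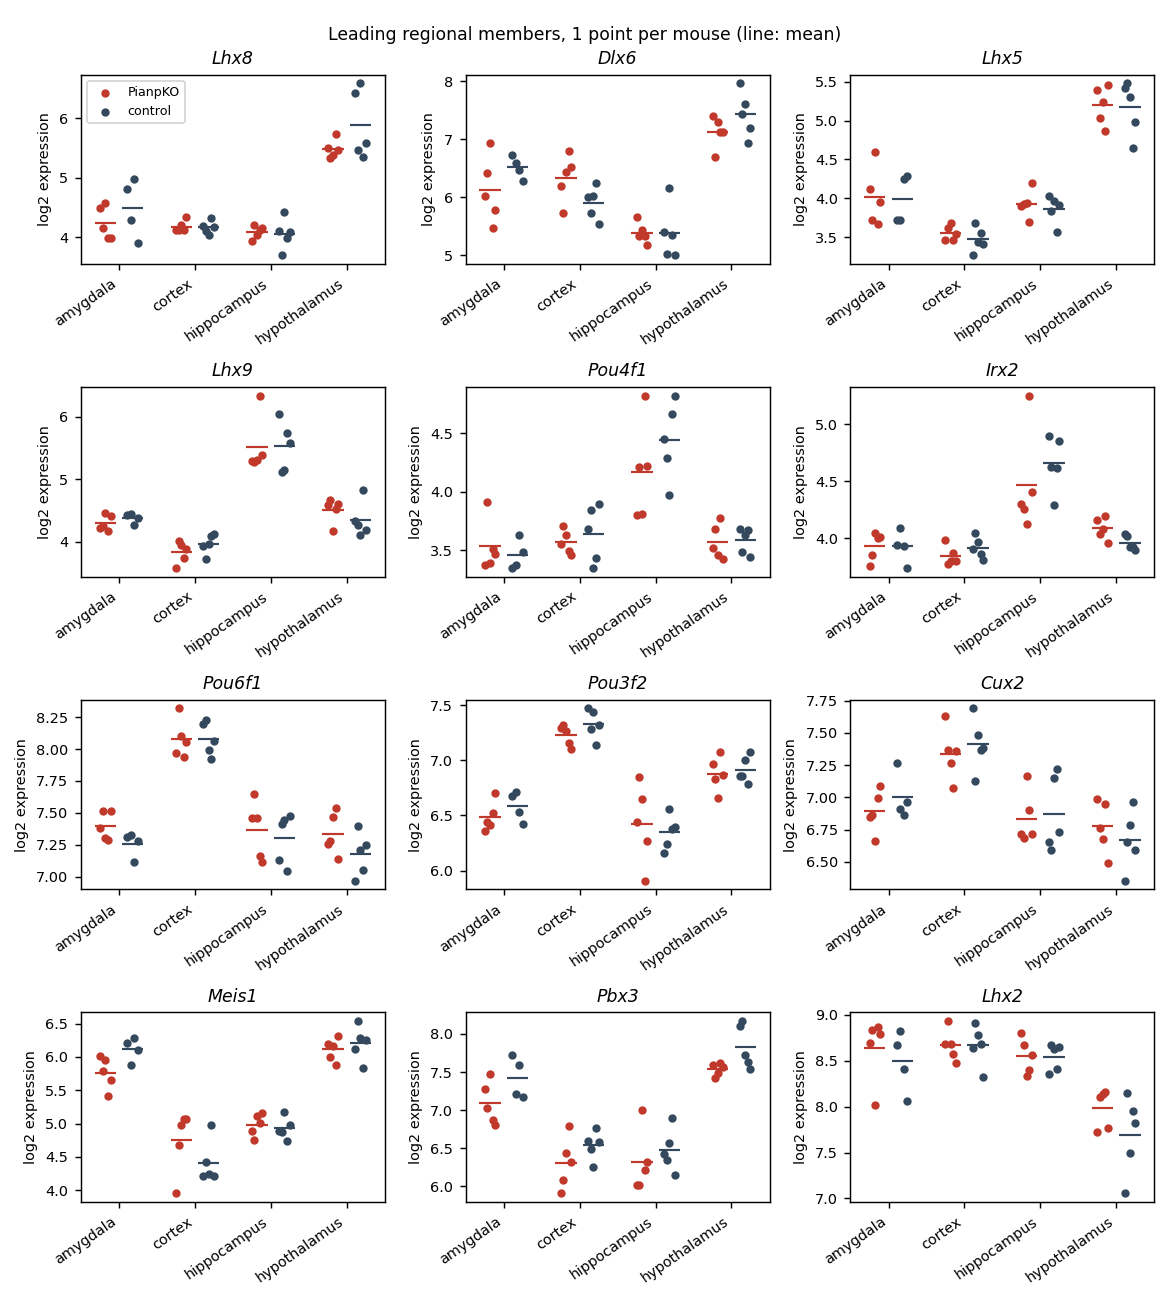
Log2 expression (vertical axes) of 12 leading regional members in each mouse, by region, with PianpKO in red left of control in dark blue and a line at each group mean. *Lhx8* and *Lhx5* in the hypothalamus and *Lhx9* in the hippocampus sit above all samples of the other 3 regions in both genotypes, while *Lhx2* has its lowest group means in the hypothalamus, with samples of 7.05 to 8.16.

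In the hippocampus, 8 members were higher in PianpKO (14%, against 6.52% of all probe sets) and 7 in control mice (12.3%, against 7.04%). *Lhx9*, *Pou4f1*, *Irx1*, *Irx2*, *Irx3*, *Irx5* and *Nkx2-9* passed in both genotypes and *Nkx2-2* in PianpKO mice only. *Lhx9* (Entrez gene 16876), which marks thalamic and other diencephalic neurons, read 5.30, 5.28, 5.30, 6.34 and 5.39 in the PianpKO and 6.05, 5.12, 5.14, 5.74 and 5.58 in the control hippocampus. All 10 samples were above the other regions, which reached 4.67 and 4.83. The difference was 1.31 (SE 0.13, adjusted p = 1.47e-09) in PianpKO and 1.29 (SE 0.13, adjusted p = 2.46e-09), or 2.44-fold, in control mice.

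*Pou4f1* (Entrez gene 18996), a factor of the medial habenula and of sensory neurons, read 3.80, 4.21, 3.81, 4.82 and 4.22 in the PianpKO and 4.45, 4.29, 3.97, 4.67 and 4.82 in the control hippocampus. In the control mice these lay above the rest, which reached 3.89, and in the PianpKO mice 2 of 5 lay below the highest sample elsewhere, 3.91. It was 0.61 (adjusted p = 0.000143) and 0.88 (adjusted p = 5.39e-07) higher. *Irx2* read 4.30, 4.26, 4.13, 5.25 and 4.40 in the PianpKO and 4.90, 4.62, 4.29, 4.62 and 4.85 in the control hippocampus. Its differences were 0.51 and 0.72, and those of *Irx3* 0.51 and 0.67, of *Irx1* 0.41 and 0.57 and of *Irx5* 0.41 and 0.24. *Irx4* and *Irx6*, the remaining members of the Iroquois gene clusters, did not vary.

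Thalamic and choroid plexus markers were high in the same punches. PianpKO replicate 4 had the highest hippocampal level of its group for *Lhx9*, *Pou4f1*, *Irx1* and *Irx2*, and also the highest mean of the 5 thalamic markers, 8.88, against 7.33 to 8.63 in the other 9 hippocampal samples. PianpKO replicate 3, with the next highest thalamic mean of its group, 8.56, and the lowest choroid plexus mean, 6.92, read 5.30 for *Lhx9*, 3.81 for *Pou4f1* and 4.13 for *Irx2*, the lowest *Irx2* level of its group. Control replicate 5 had the lowest choroid plexus mean of the control mice, 7.26, and their highest *Pou4f1* level, 4.82. *Lhx9*, *Pou4f1* and the *Irx* genes are known from the thalamus or habenula. The part of such tissue in their hippocampal levels was not tested. *Nkx2-9*, next to *Nkx2-1* in the genome but highest in another region, read 5.40, 5.25, 5.43, 5.57 and 5.26 in the PianpKO and 5.39, 5.63, 5.32, 5.32 and 5.05 in the control hippocampus, 0.53 and 0.58 above the other regions. On the low side in the hippocampus were 13 members in PianpKO (22.8%, against 5.30% of all) and 12 in control mice (21.1%, against 6.80%), with 11 shared: *Cux1*, *Dlx1*, *Dlx2*, *Dlx5*, *Dlx6*, *Lhx6*, *Lhx8*, *Meis1*, *Meis2*, *Pbx3* and *Pou3f2*.

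In the cortex, 7 members were higher in PianpKO (12.3%, against 9.97% of all) and 11 in control mice (19.3%, against 11% of all), with 6 shared. These 6 were *Cux1*, *Cux2*, *Pou3f1*, *Pou3f2*, *Pou3f3* and *Pou6f1*, all known from cortical projection neurons or their progenitors except *Pou6f1*, a more broadly expressed brain factor. *Pou6f1* (Entrez gene 19009) read 7.97, 8.32, 8.10, 7.94 and 8.06 in the PianpKO and 8.20, 8.23, 8.0, 7.93 and 8.06 in the control cortex. No sample of another region reached these levels, and the highest were 7.65 in PianpKO and 7.47 in control mice. The differences were 0.71 (SE 0.08, adjusted p = 4.56e-09) and 0.84 (SE 0.08, adjusted p = 1.70e-10).

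*Pou3f2* (Entrez gene 18992), or Brn2, of upper layer neurons, read 7.29, 7.32, 7.27, 7.15 and 7.11 in the PianpKO and 7.47, 7.28, 7.44, 7.14 and 7.32 in the control cortex, above every sample elsewhere (at most 7.07 and 7.08). It was 0.63 (adjusted p = 8.30e-07) and 0.72 (adjusted p = 1.01e-07) higher. *Cux2* (Entrez gene 13048), a marker of the same layers, read 7.63, 7.36, 7.27, 7.07 and 7.36 in the PianpKO and 7.69, 7.13, 7.48, 7.37 and 7.38 in the control cortex, with 1 cortical sample of each genotype inside the range of the other regions. Its differences were 0.50 (adjusted p = 0.000284) and 0.56 (adjusted p = 8.02e-05), and those of *Cux1* 0.44 and 0.33. *Pou3f1*, or Oct6, was 0.47 and 0.50 higher. *Lhx2* was 0.43 higher in the control cortex (adjusted p = 0.0141), a call that was lost without control replicate 3 at 0.38. Lower in the cortex were 12 members in PianpKO (21.1%, against 9.57% of all) and 12 in control mice (21.1%, against 10.7%), among them *Meis1*, and *Lhx5* at -0.83 and -0.86.

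Few members were higher in the amygdala, near the share of all probe sets. They numbered 3 in PianpKO (5.26%, against 4.25% of all) and 2 in control mice (3.51%, against 4.07%), and lower there were 5 (8.77%, against 4.13%) and 7 (12.3%, against 3.60%). *Meis1* was the member higher in both, by 0.48 (adjusted p = 0.0125) in PianpKO and 0.94 (adjusted p = 2.13e-05) in control mice. *Pbx3* was 0.48 higher in the control amygdala (adjusted p = 0.0313), and its call was lost in 4 alternatives. Among these were the fits without control replicate 1, 3 or 5, at 0.40 to 0.52. *Nkx2-4* and *Six6* passed in PianpKO mice only. *Pou3f1* differed from the other 3 regions by -0.46 in PianpKO and -0.61 in control mice, reading 5.38, 5.70, 5.15, 5.28 and 5.40 in the PianpKO and 5.41, 5.26, 5.38 and 4.86 in the control amygdala, and the control call was lost without control replicate 5. *Nkx6-2* differed by -0.50 in the control amygdala (adjusted p = 0.0139), a call lost without control replicate 1, 2 or 5, at -0.43 to -0.48.

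Between genotypes, 0 of 57 members passed an adjusted p under 0.05 in any region. Over all probe sets, the shares were 0.00787% for the amygdala, 0.0157% for the cortex and 0.00393% for both hippocampus and hypothalamus, *Pianp* being called each time. At an unadjusted p under 0.05, 3 members were higher in the PianpKO amygdala (3.86% of all probe sets) and 8 lower (4.21%). The PianpKO cortex had 2 higher (4.88%) and 5 lower members (6.34%), the hippocampus 0 higher (2.45%) and 3 lower (2.64%), and the hypothalamus 1 higher (2.74%) and 3 lower (2.81%). These 25 of 228 pairs of member and region belonged to 20 members. limma's smallest adjusted p-values were 0.245 (amygdala), 0.309 (cortex), 0.917 (hippocampus) and 0.842 (hypothalamus). The median log2 difference over members was -0.05, -0.07, -0.01 and -0.03 in the same order, against 0.00 over all probe sets. The median size without sign was 0.150, 0.103, 0.0755 and 0.0837, against 0.0767, 0.0723, 0.0613 and 0.0628. Standard errors of members were larger too, with medians of 0.109, 0.104, 0.120 and 0.102, against 0.0914, 0.0831, 0.0859 and 0.0838.

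**Figure D4:**
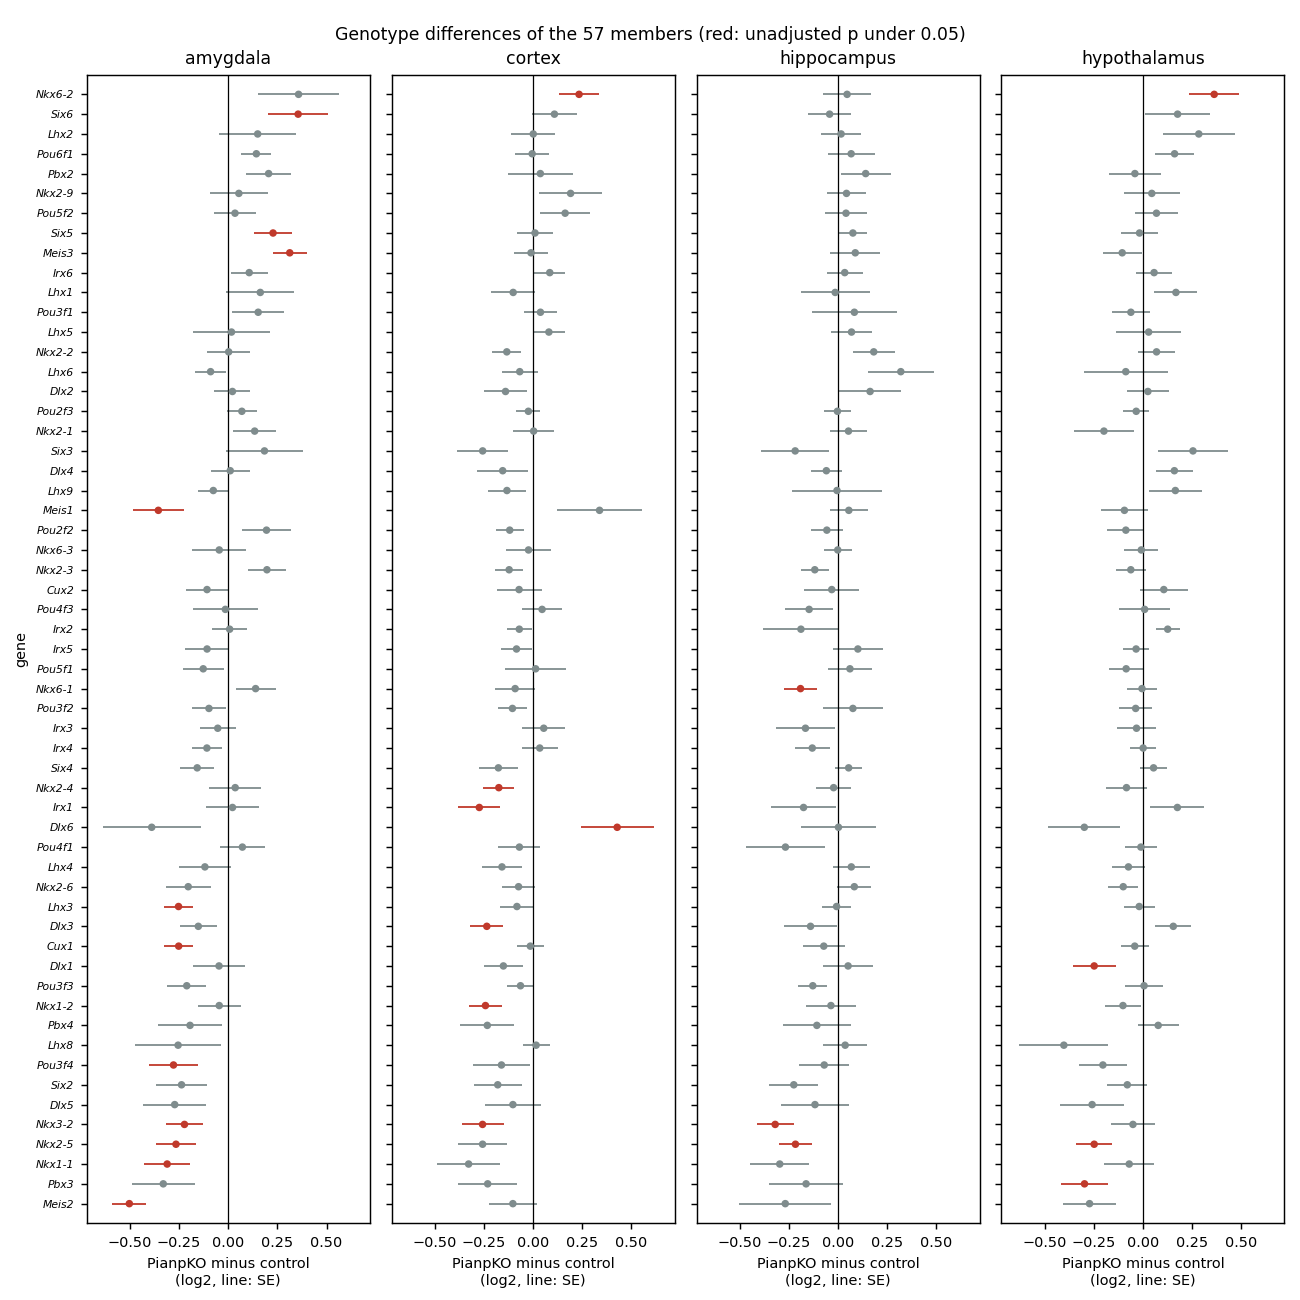
PianpKO minus control difference (log2, horizontal axes) of the 57 members in each region, ordered by their mean over regions, with the standard error as a line and members at an unadjusted p under 0.05 in red. *Meis2* in the amygdala has the most negative value, -0.50, and no member passed after adjustment.

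Groups of samples did not overlap for 1 member higher (1.11% of all probe sets) and 4 lower (1.35%) in the PianpKO amygdala, and for 0 higher (0.743%) and 1 lower (1.37%) in the cortex. No member was apart in the hippocampus (0.385% higher and 0.389% lower over all probe sets) or hypothalamus (0.476% and 0.460%). In the amygdala the 5 were *Meis2*, *Meis3*, *Lhx3*, *Cux1* and *Pou3f4*, the last of which was named after its values were seen.

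*Meis2* (Entrez gene 17536), a TALE factor of striatal projection neurons and other neurons of the ventral forebrain, read 6.30, 6.22, 6.27, 6.15 and 6.15 in the PianpKO amygdala and 6.98, 6.60, 6.69 and 6.61 in the control amygdala. All 5 PianpKO samples were below the lowest control sample. The difference was -0.50 (SE 0.086), with an adjusted p of 0.245 in limma. A two-sided exact permutation p was 0.0159, the smallest that 5 against 4 samples allow and the value that any groups without overlap give. It is unadjusted, and *Meis2* was picked by its p in these same samples, so it is no separate support. In the other regions *Meis2* was also lower in PianpKO means, by amounts that did not pass an unadjusted p under 0.05, and its groups overlapped there.

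*Meis3*, another TALE gene, read 6.29, 6.19, 6.45, 6.48 and 6.38 in the PianpKO amygdala and 5.83, 6.11, 6.17 and 6.07 in the control amygdala. It was 0.31 higher (SE 0.087, adjusted p = 0.506 in limma, exact permutation p = 0.0159), so that *Meis2* and *Meis3* differed in opposite directions in the same samples. *Meis1* differed by -0.36 (SE 0.13, adjusted p = 0.564), and its groups overlapped. *Lhx3*, a pituitary and motor neuron gene, read 3.32, 3.48, 3.52, 3.54 and 3.50 in the PianpKO and 3.76, 3.85, 3.60 and 3.69 in the control amygdala, all below the median probe set of 4.62. *Cux1* read 7.79, 7.87, 7.71, 7.75 and 7.93 in the PianpKO and 8.13, 8.18, 7.99 and 7.95 in the control amygdala. Both differed by -0.25, with adjusted p-values of 0.522 and 0.526 in limma.

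The same amygdala samples differed in markers of neighboring tissue. Of 9 striatal markers, 9 were lower in PianpKO means and 7 passed an unadjusted p under 0.05, and their mean level was 7.29 to 7.56 in PianpKO and 7.83 to 8.59 in control mice, with no overlap. Of 8 hypothalamic markers 6 were higher, with a mean level of 6.42 to 7.43 in PianpKO and 5.12 to 6.91 in control mice. The 6 pituitary markers averaged 4.48 to 8.05 and 4.03 to 5.76. *Six6*, a hypothalamic and pituitary member, read 4.24, 4.48, 4.74, 4.07 and 4.34 in the PianpKO and 3.62, 4.24, 4.04 and 4.18 in the control amygdala. The difference was 0.36 with overlap (exact permutation p = 0.0952). Whether these tissues had a part in the levels of *Meis2* or *Six6* was not tested. *Six5* was 0.23 higher, also with overlap (exact permutation p = 0.0794).

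**Figure D5:**
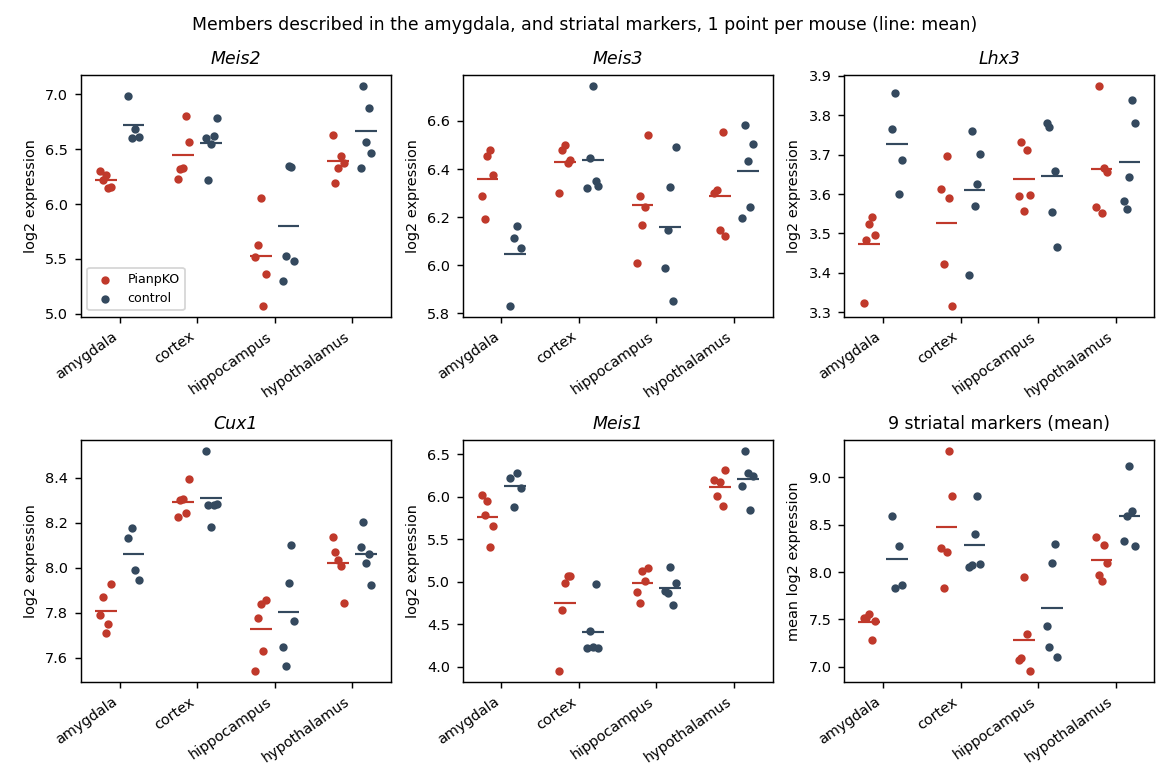
Log2 expression (vertical axes) of *Meis2*, *Meis3*, *Lhx3*, *Cux1* and *Meis1* and the mean of 9 striatal markers in each mouse, by region, with PianpKO in red left of control in dark blue and a line at each group mean. In the amygdala, *Meis2* was 6.15 to 6.30 in PianpKO and 6.60 to 6.98 in control mice, and the striatal list 7.29 to 7.56 and 7.83 to 8.59.

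In the cortex, *Nkx1-2* read 3.77, 4.22, 4.13, 3.95 and 4.14 in PianpKO and 4.25, 4.31, 4.24, 4.38 and 4.24 in control mice, without overlap (difference -0.24, adjusted p = 0.309 in limma, two-sided exact permutation p = 0.00794, the smallest that 5 against 5 allow). All these values were below the median probe set. *Dlx3* and *Irx1* differed by -0.24 and -0.27 with overlap. *Dlx6* read 6.20, 5.73, 6.44, 6.81 and 6.52 in the PianpKO and 6.01, 5.74, 6.02, 6.25 and 5.54 in the control cortex. The difference was 0.43 (SE 0.19, adjusted p = 0.422 in limma, exact permutation p = 0.111) with overlap. The neighboring *Dlx5* did not pass at an unadjusted p under 0.05. All 9 striatal markers had a higher mean in the PianpKO cortex, 0 of them at an unadjusted p under 0.05. Their cortical mean was 7.84 to 9.28 in PianpKO and 8.05 to 8.81 in control mice, and their part in *Dlx6* was not tested. *Nkx6-2* was 0.23 higher (exact permutation p = 0.0714).

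In the hippocampus, the members with the smallest p were all *Nkx* genes. *Nkx3-2*, a skeletal and visceral patterning gene, read 4.50, 4.59, 4.33, 4.10 and 4.46 in PianpKO and 4.82, 4.56, 4.84, 4.72 and 4.64 in control mice, overlapping only at 1 sample of each genotype (difference -0.32, SE 0.095, adjusted p = 0.917 in limma). *Nkx2-5*, the cardiac gene, and *Nkx6-1*, of the ventral neural tube, differed by -0.22 and -0.19. *Nkx3-2* was also lower at an unadjusted p under 0.05 in the amygdala (-0.22) and cortex (-0.26), and *Nkx2-5* in the amygdala (-0.27). In the hypothalamus *Nkx6-2* was 0.36 higher (SE 0.13, adjusted p = 0.842), *Pbx3* differed by -0.30, and *Dlx1* and *Nkx2-5* both by -0.25, all with overlap. The striatal markers were lower there too, 9 of 9 in mean and 5 at an unadjusted p under 0.05, and their part in *Pbx3* and *Dlx1* was not tested.

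The 4 regions come from the same mice, so their differences are not independent of each other. *Cux1*, *Dlx5*, *Lhx3*, *Meis2*, *Nkx1-1*, *Nkx1-2*, *Nkx2-5*, *Nkx3-2*, *Nkx6-3*, *Pbx3*, *Pou3f4* and *Six2*, 12 in all (21.1%, against 14.5% of all probe sets), had a lower PianpKO mean in all 4 regions. *Irx6*, *Lhx2*, *Lhx5*, *Nkx2-9*, *Nkx6-2* and *Pou5f2*, 6 in all (10.5%, against 13.3%), had a higher one. The test of whether the genotype difference itself differed between regions called 0 members (0% of all probe sets) after adjustment and 4 at an unadjusted p under 0.05 (5.15% of all). The smallest adjusted p over members was 0.918. These 4 were *Nkx2-3*, *Meis3*, *Meis1* and *Dlx6*. *Meis1* differed by -0.36 in the amygdala and 0.34 in the cortex, while the hippocampus and hypothalamus gave 0.05 and -0.09.

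Other homeobox genes of the brain showed a like division between region and genotype. Of 45 measured genes of this kind, 23 varied between regions in control mice, against 31.5% of all probe sets. Between genotypes 0 passed after adjustment in any region, against at most 0.0157% of all probe sets. In the cortex 4 of them were higher (4.88% of all probe sets) and 8 lower (6.34%) at an unadjusted p under 0.05. The amygdala had 0 higher (3.86%) and 1 lower (4.21%). The hippocampus had 1 higher (2.45%) and 2 lower (2.64%), and the hypothalamus 2 higher (2.74%) and 1 lower (2.81%). *Gsx1*, a ventral forebrain gene, read 3.73, 4.0, 3.87, 3.92 and 3.84 in the PianpKO and 3.55, 3.62, 3.65, 3.60 and 3.61 in the control hypothalamus, without overlap (difference 0.27, adjusted p = 0.764 in limma, exact permutation p = 0.00794), at levels below the median probe set. *Lmx1b* read 5.86, 5.79, 6.01, 5.64 and 5.82 in the PianpKO and 6.52, 5.95, 6.49, 6.12 and 6.65 in the control cortex and *Hmx2* differed by -0.57 there, with adjusted p-values of 0.196 and 0.199. The cofactor genes include the *Ldb* and *Lmo* partners of Lhx proteins, the *Eya* and *Dach* genes of the eye determination network and the *Tle* corepressors. Of 20 such genes, 16 varied between regions in control mice, against 31.5% of all probe sets, and 0 passed between genotypes after adjustment. The named cofactors differed by -0.23 (*Tle3*, amygdala), -0.17 (*Ldb2*, cortex) and 0.36 (*Tle2*, hippocampus).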

How the data were processed

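Deposited values were used as the authors made them: log2 expression per Entrez gene, from Affymetrix Mouse Gene 2.0 ST arrays, by quantile normalization and a custom chip definition (version 21). RMA is listed in the submitters' processing notes. The genome build of that definition was not given in the sources used here. Of 25429 probe sets, 24675 carried 1 symbol and 754 were not listed in the platform table. Array medians were 4.62, values ran from 2.75 to 13.91, and the number of mice limits the precision. The intensities behind the log2 values, detection calls and the age of single mice were not used.

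Members and lists were chosen with earlier results of these data known. Genotypes were compared within a region, and regions in 1 fit of all 8 groups with the mouse as a random block (correlation 0.106), with limma 3.58.1 and statmod 1.5.0 in R 4.3.3, Benjamini-Hochberg adjustment over all 25429 probe sets and a threshold of 0.05. The pairing of regions comes from the mouse in the labels, and the mean correlation of a mouse's deviations between regions was 0.027 to 0.293. Since nothing says how the mice were allotted to litters, p-values measure the spread between these mice only. Single values were compared by two-sided exact permutation tests (SciPy). For the tested members with overlapping groups these gave p-values of 0.0159 (*Nkx3-2*, hippocampus) to 0.111 (*Dlx6*, cortex). The permutation p-values were not adjusted, and the genes were chosen by their limma p in the same samples. The scripts were tested on simulated data.

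Values were given for up to 5 higher and 2 lower members per region in control mice, up to 3 higher and 3 lower members per genotype comparison at an unadjusted p under 0.05, up to 3 of the interaction, the most regional member of each class, *Pianp*, and up to 3 genes of each other list. Members of a count given in full are named as well. *Prox1* is in the list of other homeobox genes and also among the regional markers. Meningeal and oligodendrocyte markers are given in the closing section, and the other marker lists in the report. Alternatives were the replicate number as a block, 1 fit of all groups, the methods' ANOVA, another variance prior, leaving out dim probe sets, repeated quantile normalization, array weights, and leaving out each sample.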

Additional observations from a re-analysis of the deposited data

Results flagged for a closer look

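A sample far from the rest of its group was found for 3 of the 61 groups examined, and chance gives about 1 in 20. *Lhx3* read 3.32 in replicate 1 of the PianpKO amygdala, against 3.48 to 3.54 in the other samples of that group. *Meis1* read 4.97 in replicate 4 of the control cortex, against 4.22 to 4.42 in the others. *Nkx6-2* read 6.46 in replicate 3 of the control amygdala, against 5.86 to 5.96 in the others.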

How the results depend on the processing

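Between genotypes, 0 members passed an adjusted p under 0.05 in any region under any alternative that was run. The counts at an unadjusted p under 0.05 moved. The 11 members of the amygdala became 7 with the methods' ANOVA and 6 without dim probe sets, and 4 to 14 when 1 mouse was left out (4 without control replicate 1, 6 without PianpKO replicate 5). The 7 of the cortex became 3 with the methods' ANOVA, 4 with a trend and robust variance prior, 2 without dim probe sets and 11 with array weights, and 3 to 10 when 1 mouse was left out (3 without control replicate 3 or 5, 4 without control replicate 1 or PianpKO replicate 3 or 4). The 3 of the hippocampus became 1 with the trend and robust prior, 1 without dim probe sets and 1 to 6 when 1 mouse was left out (1 without control replicate 2, 6 and 5 without PianpKO replicate 3 and 4). The 4 of the hypothalamus became 2 to 7 (7 without control replicate 4, 2 without PianpKO replicate 2). Without dim probe sets fewer genes were tested, and 19 of the 24 members left varied between regions in PianpKO and 19 of 24 in control mice. Over all probe sets brighter than the median, 6735 and 7610 did, so the shares of the main fit do not apply here. When 1 mouse was left out, 29 to 33 members varied in PianpKO and 31 to 34 in control mice. Over all probe sets, 5565 to 6334 and 6013 to 7963 did. The interaction count of 4 became 2 with no replicate block and 1 to 6 when 1 mouse was left out, an alternative chosen after the data were seen (1 without control replicate 1 or PianpKO replicate 5, 2 without control replicate 2 or 3 or PianpKO replicate 4). Mice with the same number in the 2 genotypes share only a number (correlations of their deviations from -0.09 to 0.24), and with this replicate block 16 members (amygdala), 7 (cortex), 3 (hippocampus) and 4 (hypothalamus) passed an unadjusted p under 0.05, and 0 after adjustment. Of the alternatives for single named members, 292 of the genotype differences and 209 of the regional ones kept direction and call, 9 regional calls were lost, and none turned. Depth is unknown for arrays, and 33 of 57 members lay at or below the median probe set.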

Other observations

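The mean levels of meningeal and of oligodendrocyte markers overlapped between the genotypes in every region. The 7 meningeal markers averaged 6.03 to 6.43 in the PianpKO and 6.13 to 6.85 in the control amygdala, 5.14 to 5.54 and 5.24 to 5.58 in the cortex, 5.71 to 6.07 and 5.52 to 5.94 in the hippocampus, and 5.91 to 6.43 and 5.75 to 6.32 in the hypothalamus. The 5 measured oligodendrocyte markers were highest in the hippocampal samples, at 10.10 to 10.37 in PianpKO and 10.11 to 10.51 in control mice. In the cortex all 5 had a higher PianpKO mean, 1 at an unadjusted p under 0.05 in limma. They averaged 9.67 to 9.94 there in PianpKO and 9.41 to 9.79 in control mice. In the hippocampus all 5 had a lower PianpKO mean, 0 at that p. All 5 were lower in the control amygdala than in the other regions at an adjusted p under 0.05. Their part in the *Nkx6-2* levels was not tested.

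Among other homeobox genes, *Prox1*, a marker of dentate granule cells, was 2.19 higher in the control hippocampus than in the other 3 regions, *Otp* and *Isl1*, of hypothalamic neurons, were 0.83 and 0.99 higher in the control hypothalamus, and *Satb1* and *Emx1*, of cortical neurons, were 1.08 and 0.73 higher in the control cortex. *Otx1* differed between genotypes by -0.27 in the amygdala, -0.30 in the cortex and -0.27 in the hippocampus, with adjusted p-values in limma of 0.550, 0.249 and 0.958. These genes were picked after their values were seen.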
